A study of Mus musculus with 24 samples.

Results

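Day 8 after a muscle injury was compared with the uninjured state in 2 cell types of the same muscle, and the responses were set against each other gene by gene. The satellite response is the day 8 value minus the day 0 value in satellite cells, and the endothelial response is the same difference in endothelial cells. By sample title, 12 of the 24 arrays of the series belong to this comparison, 3 in each of 4 groups. Satellite cells and endothelial cells were sorted from mouse tibialis anterior, a muscle of the shin, uninjured (day 0) or 8 days after injection of cardiotoxin, a venom toxin that destroys muscle fibres. No strain, genotype, sex or age was given. Satellite cells were gated as negative for CD45, Sca1 and CD31 and positive for alpha7-integrin, with CD34 positive or low. Endothelial cells were gated as negative for CD45 and positive for Sca1, CD34 and CD31. Both sorts started from digested whole muscle, and picogram amounts of RNA were amplified before hybridisation. The samples are labelled as biological replicates, and whether an array stands for one animal or a pool was not stated. The other 12 arrays (days 2 and 4) entered the fit only through the shared estimate of spread. They also counted in the filter on low values that set which genes were tested.

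Satellite cells are the muscle stem cells that lie quiescent under the basal lamina of the fibre, and after injury they divide, differentiate into myocytes and fuse into new fibres. Endothelial cells line the capillaries of the muscle, which are remodelled during the same days. Both cell types divide after injury, whereas the contractile programme belongs to the myogenic lineage and the junctional and receptor genes of the vessel wall belong to the endothelium.

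The sorting markers were checked first. Pax7, the transcription factor of satellite cells, stood at 9.80, 8.76 and 9.28 (log2 array values of replicates 1 to 3) in satellite cells on day 0 and at 8.86, 7.40 and 8.13 on day 8, against 4.83 to 5.21 in endothelial cells over both days. Pecam1, which encodes CD31, stood at 11.36 to 11.55 in all 6 endothelial arrays. In satellite cells Pecam1 was at 8.21, 7.72 and 7.19 on day 0 and at 9.10, 9.99 and 9.56 on day 8, so the arrays of the 2 days did not overlap although the sort selected against CD31. Array medians over the 24 arrays ran from 4.11 to 4.40, and within a group the correlation between arrays lay between 0.900 and 0.957. Ptprc, which encodes CD45, stayed at 2.78 to 3.13 on the day 0 arrays and reached 3.41 to 5.86 in satellite cells and 2.99 to 4.07 in endothelial cells on day 8. Its satellite difference of 1.76 ± 0.79 was not called (adjusted p = 0.191), but was called in the fit of the 12 arrays of days 0 and 8 alone (0.037).

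Transcripts of other cell types moved with the day in these bulk samples, and fewer cells of a type and less RNA per cell cannot be told apart in them. The mean log2 value of the 12 endothelial markers tested in satellite arrays was 6.05 to 6.17 on day 0 and 6.84, 7.91 and 7.70 on day 8, below the 9.83 to 9.95 of the endothelial arrays. The mean of 20 macrophage and leukocyte markers went from 3.87 to 4.31 on day 0 to 6.87, 5.45 and 6.73 on day 8 in satellite cells, and from 4.09 to 4.25 to 5.60, 5.04 and 5.93 in endothelial cells. The 16 markers of mature myofibres averaged 6.39 to 6.65 in satellite cells on day 0 and 7.32, 9.39 and 9.57 on day 8, with replicate 1 apart from the others. The 15 pericyte and smooth muscle markers averaged 8.94 to 9.73 and then 7.91 to 8.81 in satellite cells, and 6.75 to 7.55 and then 5.65 to 5.90 in endothelial cells. The 6 neutrophil markers lay between 3.00 and 3.42 on all 12 arrays, below every array median. Their part in the gene results below was not tested.

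**Figure D1:**
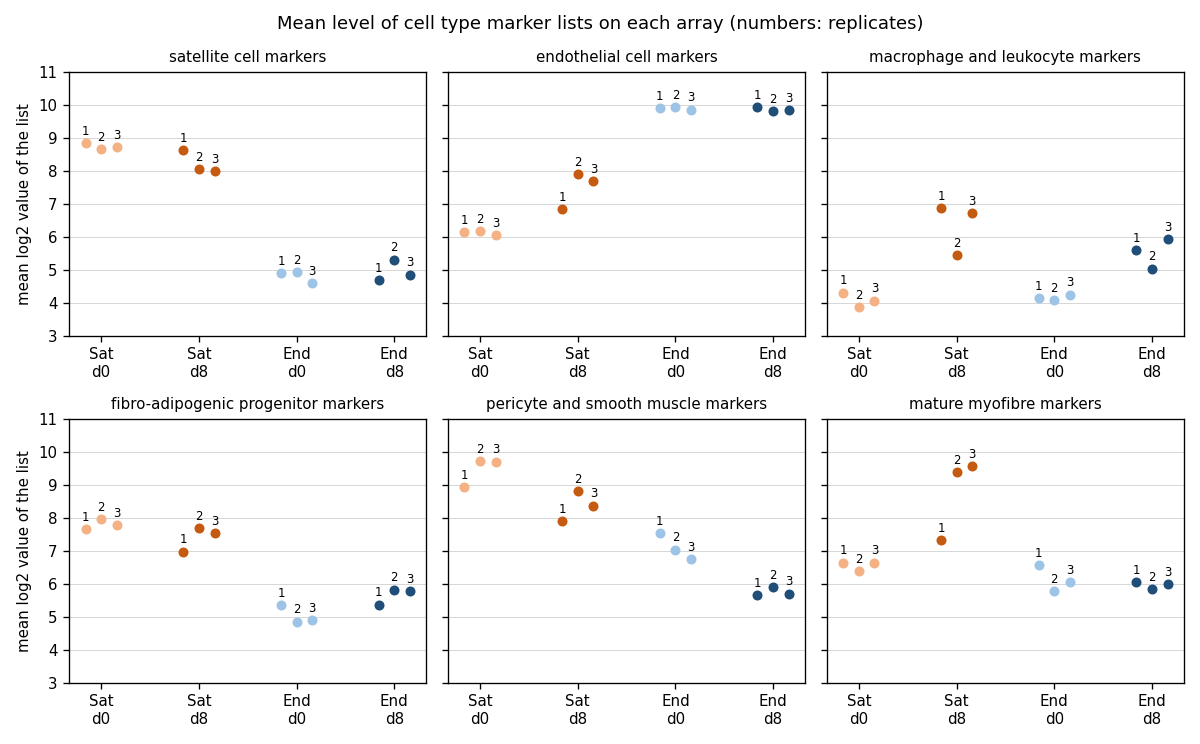
Mean log2 value of 6 cell type marker lists on each of the 12 arrays (y axis), by cell type and day (x axis; Sat, satellite cells; End, endothelial cells; d0 and d8, days 0 and 8), each point an array with its replicate number. Leukocyte markers are higher on day 8 in both cell types, endothelial and myofibre markers in satellite cells, and pericyte markers are lower on day 8 in both.

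More genes were called in satellite cells than in endothelial cells by day 8. A gene was called where limma's moderated test gave an adjusted p under 0.05 with a log2 difference of at least 1, over 14064 genes tested. In satellite cells 616 genes (4.38%) rose and 281 (2%) fell, and in endothelial cells 156 (1.11%) rose and 133 (0.946%) fell. The response difference (satellite response minus endothelial response) was called higher for 196 genes (1.39%) and lower for 114 (0.811%). That split of higher against lower depended on the scaling of the arrays. It was 161 against 142 with every array re-centred on its median and 146 against 148 with every array scaled to a common 75th percentile, which moved the response difference of the median gene by -0.13.

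More genes rose in both cell types than fell in both. Of the genes called in both cell types, 84 rose in both, 19 fell in both and 4 moved in opposite directions. The 84 were 13.6% of the genes that rose in satellite cells and 53.8% of those that rose in endothelial cells, whereas the 19 were 6.76% and 14.3% of the genes that fell. A response was assigned to one cell type only where it was called there, the other cell type was not called and moved by less than 1, and the response difference was called. By this definition 129 genes rose and 78 fell in satellite cells only, and 14 rose and 28 fell in endothelial cells only. For 63, 62, 10 and 14 of these in turn, the 95% interval of the other cell type's response lay inside -1 to 1, which is the stricter reading of no response. A further 723 genes were called in only 1 cell type and met none of these definitions, and for 586 of them the estimates had the same sign in both. The response difference was called for 9 of the 723. Across all genes tested the 2 responses correlated at r = 0.29 (Spearman 0.19), which describes the genes and is not a test. The 2 responses share no control arrays.

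**Figure D2:**
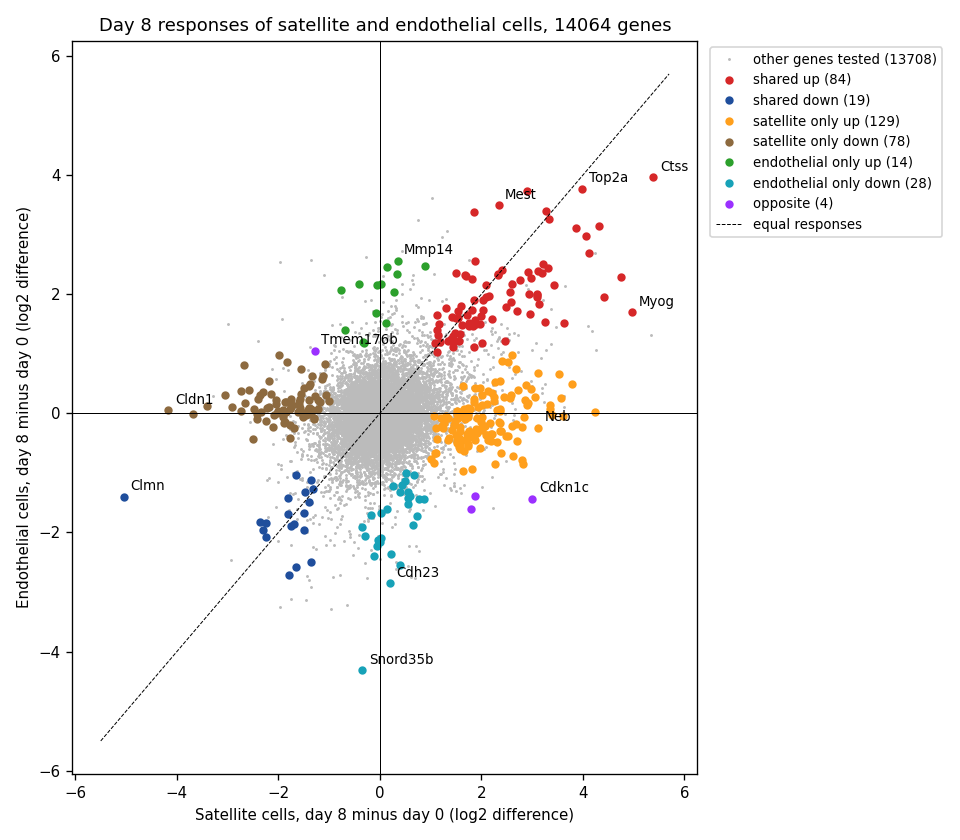
Each point is one of 14064 genes, placed by its satellite response (x axis) and its endothelial response (y axis), both log2 differences of day 8 minus day 0, and coloured by class with the number of genes in each. The 84 genes that rose in both form the arm at upper right, and genes of one cell type lie along the axes.

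The class sizes depended on single arrays, named here by group and replicate. Without endothelial day 8 replicate 3 the genes that fell in endothelial cells numbered 54, the satellite-only genes that rose 76, the endothelial-only genes 6 up and 12 down, the shared genes that fell 10, and the response differences 109 higher and 74 lower. Of the 129 satellite-only genes that rose, 73 were still in the class. Counts of endothelial-only genes that fell were 13 without endothelial day 0 replicate 2, 15 without endothelial day 8 replicate 2, 13 without satellite day 8 replicate 3, 16 without satellite day 8 replicate 2 and 18 without satellite day 0 replicate 3. Leaving out endothelial day 0 replicate 1 or 2, or endothelial day 8 replicate 2, gave 72, 68 and 67 genes that fell in endothelial cells. The satellite-only genes that rose then numbered 84 without endothelial day 0 replicate 1, 82 without endothelial day 8 replicate 2, 83 without satellite day 8 replicate 3 and 189 without satellite day 8 replicate 1. Endothelial-only genes that rose numbered 8 without satellite day 0 replicate 3 and 9 without endothelial day 0 replicate 3 or satellite day 8 replicate 2. Higher response differences numbered 130, 120 and 117 without endothelial day 0 replicate 2, endothelial day 8 replicate 2 and satellite day 8 replicate 3, and shared genes that fell 11 and 12 without the first pair of these. The 84 genes that rose in both ranged from 57 to 81 over the 12 such fits.

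Genes of cell division were the largest listed group in the shared rise, with 20 of its 84 genes. The replication and mitosis lists hold 64 of the 14064 genes tested, and lists differ in size. Of 33 mitosis and G2/M genes tested, 30 rose in satellite cells and 19 in endothelial cells, and all 19 rose in both. Their median log2 differences were 1.96 and 1.57, against -0.01 and -0.00 over all genes tested, and limma called no response difference among them (7 of 33 were higher at an unadjusted p under 0.05 and none lower). Top2a, the topoisomerase that untangles chromosomes before mitosis, stood at 3.75, 3.66 and 4.02 in satellite cells on day 0 and at 7.84, 7.62 and 7.96 on day 8. In endothelial cells it went from 3.70, 2.96 and 3.25 to 7.20, 7.10 and 6.94, and the days did not overlap in either cell type. The log2 differences were 3.99 ± 0.31 (SE, adjusted p = 3.9e-08) and 3.78 ± 0.31 (adjusted p = 4.4e-07), and the response difference was 0.22 with a 95% interval of -0.69 to 1.13. Days that do not overlap were required of genes named by class, here and below, so this is no support for them. Over all 14064 genes tested, the days did not overlap for 3613 in satellite cells and 3067 in endothelial cells.

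Ube2c, the ubiquitin-conjugating enzyme of the anaphase-promoting complex, responded by nearly the same amount in both. It went from 4.40, 3.90 and 5.34 to 7.74, 7.93 and 7.82 in satellite cells and from 4.80, 3.70 and 3.82 to 7.50, 7.53 and 7.51 in endothelial cells. Its differences were 3.28 ± 0.38 and 3.40 ± 0.38. Cdk1, the kinase that drives entry into mitosis, rose by 3.87 ± 0.49 in satellite cells, from 3.97 to 4.14 up to 7.70 to 8.19, and by 3.11 ± 0.49 in endothelial cells, from 3.60 to 4.32 up to 6.84 to 7.44. Mki67, the antigen of cycling cells, rose by 3.21 ± 0.33 and 2.51 ± 0.33. On days 2 and 4 Top2a averaged 7.12 and 7.65 in satellite cells and, in endothelial cells, 6.87 and 7.71, so it was already high before day 8. The day 0 values of Top2a lay below the array medians, where a rise can be understated.

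Of 31 DNA replication and G1/S genes tested, 19 rose in satellite cells and 1 rose in endothelial cells, with median differences of 1.36 and 0.59 and 2 called response differences, those of Mcm6 and Rrm2. Mcm6, a subunit of the replicative helicase, went from 4.81, 5.94 and 5.18 to 8.00, 7.05 and 7.66 in satellite cells and from 6.63, 6.77 and 6.52 to 7.30, 7.05 and 7.16 in endothelial cells. The satellite arrays of the 2 days did not overlap, and the endothelial arrays of day 0 lay between them. Rrm2, a ribonucleotide reductase subunit, rose by 2.60 ± 0.29 in satellite cells against 0.98 ± 0.29 in endothelial cells. The response differences were called for both, at adjusted p = 0.029 and 0.036. They missed the threshold in 8 of the 12 fits without an array, at up to 0.078 for Mcm6 without satellite day 0 replicate 1 and 0.102 for Rrm2 without endothelial day 8 replicate 2, and the call of Rrm2 was also lost under both other scalings. E2f8, a repressor in the E2F family, was the gene called in both, at 2.46 ± 0.32 and 1.21 ± 0.32. Its endothelial call had an adjusted p of 0.048, which rose to 0.177 without endothelial day 8 replicate 1.

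The promoters of 3 shared cell division genes are shown because genes of this group moved together. The letters come from RefSeq (GRCm38.p6) and cover 300 bases around the annotated transcription start, written 5′ to 3′ in the direction of the gene. Capitals mark TTTGAA or its reverse complement TTCAAA, the core of the cell cycle genes homology region, and CCAAT or its reverse complement ATTGG, the motif bound by NF-Y. The Top2a window is chr11:99024140-99024439, minus strand, the Cdk1 window chr10:69352863-69353162, minus strand, and the Ube2c window chr2:164769679-164769978, plus strand.
Top2a: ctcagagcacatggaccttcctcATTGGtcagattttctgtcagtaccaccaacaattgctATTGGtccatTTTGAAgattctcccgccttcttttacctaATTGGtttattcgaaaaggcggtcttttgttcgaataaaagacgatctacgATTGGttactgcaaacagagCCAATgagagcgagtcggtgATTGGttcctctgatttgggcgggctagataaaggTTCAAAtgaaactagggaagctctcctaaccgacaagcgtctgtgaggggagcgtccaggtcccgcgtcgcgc
Cdk1: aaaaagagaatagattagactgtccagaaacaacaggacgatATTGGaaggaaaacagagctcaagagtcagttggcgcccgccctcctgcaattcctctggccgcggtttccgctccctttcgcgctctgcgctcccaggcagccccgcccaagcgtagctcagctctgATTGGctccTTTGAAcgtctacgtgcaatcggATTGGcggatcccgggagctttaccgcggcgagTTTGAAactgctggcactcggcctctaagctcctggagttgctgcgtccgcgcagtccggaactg
Ube2c: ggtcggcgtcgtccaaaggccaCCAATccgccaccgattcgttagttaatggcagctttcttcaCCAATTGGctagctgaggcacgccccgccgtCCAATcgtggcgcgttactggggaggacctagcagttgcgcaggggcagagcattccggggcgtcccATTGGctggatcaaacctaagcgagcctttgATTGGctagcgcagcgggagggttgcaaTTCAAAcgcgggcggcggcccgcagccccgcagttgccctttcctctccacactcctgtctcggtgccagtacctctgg
The Top2a window holds 2 TTTGAA and 6 CCAAT matches over both strands, the Cdk1 window 2 and 3, and the Ube2c window 1 and 6, of which a CCAAT and an ATTGG overlap. Over all 13673 promoter windows matched to the genes tested, 12.3% held TTTGAA and 37.2% held CCAAT. Among the 79 windows of genes that rose in both cell types the shares were 35.4% and 49.4%. The 17 windows of the shared mitosis genes held each motif in 13, or 76.5%, whereas the 62 windows of the other shared genes held TTTGAA in 24.2% and CCAAT in 41.9%. TTTGGCGC or TTTCCCGC, also counted, occurred in 7.59% of the 79 windows, in 0 of the 17 and in 2.79% of all windows. These are counts of letters, with no test. Among the 126 windows of satellite-only genes that rose, TTTGAA occurred in 16.7% and CCAAT in 36.5%. The shares were 30% and 50% of the 10 windows of endothelial-only genes that rose. Among the 32 windows of endothelial-only genes that fell, each motif occurred in 18.8%.

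Of the 84 genes that rose in both, 40 belong to any gene list, among them 4 leukocyte markers and 6 matrix or basement membrane genes. Of all 14064 genes tested, 611 belong to any list. Of these, 38 are in the leukocyte, class II, neutrophil or lymphocyte lists and 48 in the matrix or basement membrane lists. Ctss, which encodes the lysosomal protease cathepsin S of antigen-presenting cells, stood at 3.46, 3.20 and 2.92 in satellite cells on day 0 and at 8.96, 7.39 and 9.41 on day 8. In endothelial cells it went from 3.30, 3.55 and 3.35 to 7.32, 6.88 and 7.90. Its differences were 5.39 ± 0.62 and 3.97 ± 0.62, with no overlap between days. Ms4a7, a membrane protein of macrophages, rose by 4.32 ± 0.75 and 3.15 ± 0.75, and its endothelial adjusted p of 0.027 reached 0.122 without endothelial day 8 replicate 3. Of the 20 leukocyte markers tested, 11 rose in satellite cells and 4 in endothelial cells, the 4 being Ctss, Ms4a7, Tyrobp and Lcp1. Satellite day 8 replicate 2 was the lowest of its group for Ctss, Ms4a7 and the list mean, and both cell types were sorted as CD45 negative.

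The chemokine genes Cxcl2, Ccl2 and Cxcl10 rose in both cell types, with no called difference between the responses. Cxcl2, a neutrophil attractant, went from 4.69, 4.44 and 2.68 to 7.41, 6.23 and 8.14 in satellite cells and from 3.72, 2.91 and 3.03 to 6.14, 6.56 and 6.74 in endothelial cells. The differences were 3.33 ± 0.52 and 3.26 ± 0.52, and the response difference was 0.07 with a 95% interval of -1.47 to 1.60. Ccl2, a monocyte attractant, rose by 2.61 ± 0.41 and 2.17 ± 0.41, and Cxcl10, a chemokine induced by interferon, by 3.19 ± 0.34 and 2.35 ± 0.34. For all 3 the mean in satellite cells on day 2 was above that on day 8 (11.31 against 7.26 for Cxcl2). Il6, which encodes the cytokine interleukin 6, rose by 1.87 in satellite cells and 3.38 in endothelial cells, and that difference between cell types was not called. Over the 26 inflammation and chemokine genes tested, 5 rose and 2 fell in satellite cells, and 5 rose in endothelial cells.

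Of 34 fibrillar collagen and matrix genes tested, 9 rose and 2 fell in satellite cells and 11 rose in endothelial cells. The medians were nearly equal, at 0.87 and 0.86, and 5 genes rose in both. Mfap4, a microfibril-associated glycoprotein, went from 4.25, 4.40 and 4.08 to 9.22, 8.41 and 8.36 in satellite cells and from 2.97, 3.77 and 2.99 to 5.36, 5.15 and 5.08 in endothelial cells. Its differences of 4.42 ± 0.39 and 1.96 ± 0.39 were unequal (response difference 2.46 ± 0.56, adjusted p = 0.020, and 0.066 without endothelial day 0 replicate 2). Lum, which encodes the proteoglycan lumican, rose by 3.09 ± 0.48 and 1.95 ± 0.48, and the second call had an adjusted p of 0.209 without endothelial day 8 replicate 3, its highest array at 6.07 against 4.47 and 4.40. The collagen genes Col1a1 (1.99 and 1.64) and the tenascin gene Tnc (2.03 and 1.90) rose in both. Col15a1, Postn and Col3a1 rose in endothelial cells (2.96, 3.07 and 1.64), with satellite responses of 1.22, 1.33 and 0.43 that were not called, and no called difference between the cell types.

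Of 17 basement membrane genes tested, 4 rose in endothelial cells, whereas 1 rose and 3 fell in satellite cells. Lamb1, the laminin beta1 chain, rose in both, from 6.79, 7.13 and 7.22 to 8.37, 8.27 and 8.76 in satellite cells and from 7.60, 7.89 and 6.79 to 9.27, 9.00 and 8.86 in endothelial cells. The differences were 1.42 ± 0.34 and 1.62 ± 0.34, with adjusted p-values of 0.009 and 0.011. These became 0.054 without satellite day 8 replicate 3 and 0.075 without endothelial day 0 replicate 3. Apln, the apelin peptide of sprouting endothelium, rose by 2.03 ± 0.44 and 1.74 ± 0.44, from a satellite level near background (3.02 to 3.41) to 5.04 to 5.54. Its endothelial call was lost in 5 fits, at up to 0.204 without endothelial day 0 replicate 3.

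Several imprinted growth genes rose. Mest, an imprinted gene of the hydrolase fold family, rose in both, from 8.23, 8.76 and 8.26 to 11.02, 10.47 and 10.77 in satellite cells and from 6.99, 7.03 and 6.42 to 10.41, 10.19 and 10.33 in endothelial cells. The rise was 5.06-fold and 11.3-fold (2.34 ± 0.42 and 3.50 ± 0.42), and the difference between them was not called (adjusted p = 0.37). H19, the long noncoding RNA of the same imprinted cluster as Igf2, rose by 3.14 ± 0.22 and 1.83 ± 0.22. Its response difference of 1.31 ± 0.32 had an adjusted p of 0.031, and the call was lost under both other scalings and in 9 fits without an array, at up to 0.084 without satellite day 8 replicate 2. Igf2, the growth factor gene beside it, went from 8.13, 8.24 and 7.58 to 9.77, 9.63 and 9.72 in satellite cells and from 7.38, 6.79 and 5.99 to 6.89, 6.89 and 6.50 in endothelial cells. It is in the satellite-only class with a response difference of 1.68 ± 0.43 (adjusted p = 0.041, and 0.113 without endothelial day 8 replicate 3). Plagl1, a zinc finger factor, rose by 3.12 ± 0.32 in satellite cells against 0.67 ± 0.32. Of 17 imprinted genes tested, 6 rose in satellite cells, 2 rose and 1 fell in endothelial cells, and 4 had a called response difference.

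Of the muscle lists, Myog, Actc1 and Tnnt1 were called in both cell types. Myog, the myogenic factor that starts terminal differentiation, went from 5.23, 5.76 and 5.35 to 10.33, 10.50 and 10.44 in satellite cells. In endothelial cells it went from 5.10, 4.85 and 4.76 to 5.40, 7.00 and 7.39. The differences were 4.98 ± 0.34 and 1.70 ± 0.34 and the response difference 3.28 ± 0.49 (adjusted p = 0.00072). The endothelial arrays were spread, with replicate 1 close to day 0, and the endothelial call was lost without replicate 2 or 3 of day 8 (adjusted p up to 0.072). Actc1, the cardiac actin gene expressed in young muscle fibres, rose by 4.75 ± 0.55 and 2.28 ± 0.55, with the endothelial call lost in 4 fits at up to 0.177 without endothelial day 8 replicate 3. Tnnt1, the slow skeletal troponin T, rose by 1.14 ± 0.33 in satellite cells and by 1.40 ± 0.33 in endothelial cells, with calls lost at up to 0.123 without satellite day 8 replicate 1 and 0.164 without endothelial day 8 replicate 3. In endothelial cells the mean of the satellite cell markers beside these was 4.60 to 4.94 on day 0 and 4.69, 5.31 and 4.86 on day 8.

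**Figure D3:**
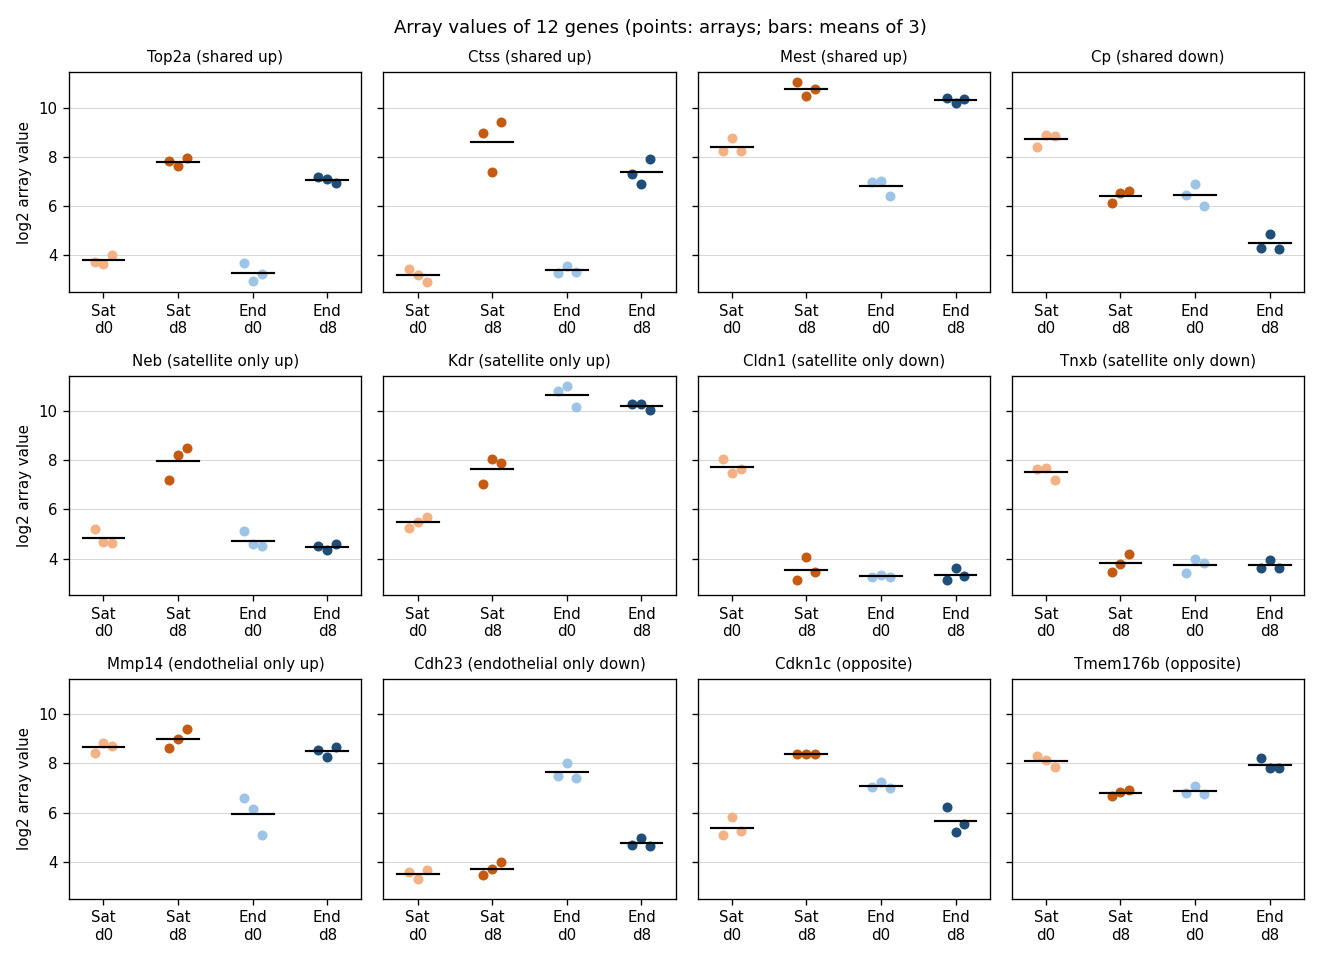
Log2 array values (y axis) of 12 genes in the 4 groups (x axis), each point an array and each bar the mean of 3, with the class in brackets. Top2a, Ctss and Mest are higher and Cp lower on day 8 in both cell types, Neb, Kdr, Cldn1 and Tnxb move in satellite cells, Mmp14 and Cdh23 in endothelial cells, and Cdkn1c and Tmem176b cross over.

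Among the 19 genes that fell in both cell types, Cp, which encodes the copper-carrying ferroxidase ceruloplasmin, went from 8.41, 8.91 and 8.87 to 6.12, 6.55 and 6.63 in satellite cells and from 6.46, 6.90 and 5.99 to 4.31, 4.88 and 4.27 in endothelial cells. It fell by 2.30 ± 0.32 and by 1.96 ± 0.32, with no overlap between days, which was a condition of its selection. Adam22, a member of the ADAM family, fell by 2.24 ± 0.31 and by 1.84 ± 0.31. Ephx1, the microsomal epoxide hydrolase, fell by 2.37 ± 0.39 and by 1.83 ± 0.39, and its endothelial adjusted p of 0.014 became 0.082 without endothelial day 8 replicate 1. Sncg, gamma-synuclein, fell by 1.75 ± 0.43 and by 1.89 ± 0.43, with adjusted p-values of up to 0.072 without satellite day 8 replicate 3 and 0.116 without endothelial day 0 replicate 1. Of the 19 genes, 11 had the larger fall in satellite cells.

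Clmn, which encodes the actin-binding protein calmin, was the one shared fall with a called response difference. It dropped from 7.82, 7.80 and 8.08 to 3.42, 2.76 and 2.38 in satellite cells and from 3.96, 4.93 and 3.78 to 2.75, 2.61 and 3.10 in endothelial cells. The response difference was -3.63 ± 0.38 (adjusted p = 1.2e-05). The endothelial levels lay near or below the array medians on both days. Clmn was already at 2.75 and 3.00 (means) in satellite cells on days 2 and 4.

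Kcnj8, the potassium channel subunit Kir6.1 of pericytes, fell in both sorts. It went from 9.85, 10.93 and 10.53 to 7.70, 9.36 and 8.88 in satellite cells and from 9.13, 8.26 and 7.89 to 4.73, 6.04 and 6.40 in endothelial cells. The falls were by 1.79 ± 0.50 and by 2.71 ± 0.50, and the satellite adjusted p of 0.028 became 0.153 without satellite day 8 replicate 1. Of 15 pericyte and smooth muscle genes tested, 5 fell in endothelial cells, which were Pdgfrb, Vtn, Abcc9, Kcnj8 and Rgs5 (-3.28, -3.25, -2.80, -2.71 and -2.26), while 4 fell in satellite cells, which were Cnn1, Kcnj8, Myocd and Tagln (-1.99, -1.79, -1.52 and -1.43). Kcnj8 was the member called in both. At an unadjusted p under 0.05, 8 of the 15 were lower in each cell type, and 2 response differences were called, those of Cnn1 and Myocd. Cnn1, the smooth muscle protein calponin, had a response difference of -2.97 ± 0.78 with an adjusted p of 0.048, and 0.139 without satellite day 8 replicate 3.

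Mir27a, the microRNA gene with the largest shared fall by the smaller of its 2 differences, is shown with both mature arms because the array probe set reads the gene and does not tell the arms apart. The sequences come from RefSeq (GRCm38.p6), with the seed, bases 2 to 8, in capitals.
mmu-miR-27a-5p: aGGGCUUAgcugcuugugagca
mmu-miR-27a-3p: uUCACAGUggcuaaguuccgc
The gene lies on chromosome 8, with the 5p arm at chr8:84208685-84208706 and the 3p arm at chr8:84208727-84208747, plus strand, and the seeds differ. Its probe set read 8.34, 7.14 and 7.54 in satellite cells on day 0 and 5.62, 4.88 and 5.81 on day 8, a fall by 2.24 ± 0.48. In endothelial cells it read 6.17, 6.80 and 6.86 and then 4.77, 4.55 and 4.31, a fall by 2.07 ± 0.48. The endothelial adjusted p of 0.023 reached 0.104 without endothelial day 8 replicate 3. The values are those of the gene's probe set and give no level for the mature microRNA.

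Of 28 sarcomere genes tested, 18 rose in satellite cells and 2 in endothelial cells, with medians of 2.16 and 0.03, and 6 had a called response difference, all higher. Neb, the giant thin-filament protein nebulin, went from 5.19, 4.66 and 4.65 to 7.19, 8.19 and 8.47 in satellite cells, while the endothelial arrays read 5.11, 4.58 and 4.50 on day 0 and 4.53, 4.35 and 4.58 on day 8. The responses were 3.11 ± 0.28 and -0.24 ± 0.28, and the response difference 3.36 ± 0.40 (adjusted p = 6.2e-05). Ttn, the elastic filament titin, gave 2.70 ± 0.30 and -0.46 ± 0.30, and Actn3, the fast-fibre alpha-actinin, 2.52 ± 0.40 and -0.38 ± 0.40. Satellite day 8 replicate 1 was the lowest of its group for all 3.

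Myot, the Z-disc protein myotilin, rested on satellite day 8 replicates 2 and 3. It stood at 4.45, 4.72 and 4.61 on day 0 and at 4.88, 8.66 and 8.72 on day 8. Its response difference of 3.68 ± 0.92 had an adjusted p of 0.036, which was 8.1e-06 in the fit without satellite day 8 replicate 1 and was above 0.05 in the 11 others, at up to 0.105 without satellite day 8 replicate 3. Mb, the oxygen carrier myoglobin, had the same pattern, at 5.61, 8.12 and 8.04 on day 8. Pgam2, the muscle form of a glycolytic mutase, read 5.90, 8.45 and 8.91 on day 8, with a response difference of 2.86 ± 0.73 (adjusted p = 0.040, and 0.114 without satellite day 8 replicate 3). The myofibre marker mean of replicate 1 was 7.32 against 9.39 and 9.57.

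Of 28 genes of myogenic regulation and fusion, 10 rose in satellite cells and 1 in endothelial cells. Mymk, the fusion protein myomaker, went from 3.86, 4.35 and 4.21 to 9.37, 9.38 and 9.72. Its response was 5.35 ± 0.35 in satellite cells against 1.32 ± 0.35 in endothelial cells (adjusted p = 0.053), with endothelial arrays at 4.16, 5.67 and 5.73 on day 8, and the response difference was 4.03 ± 0.50. Klhl41, a Kelch protein that stabilises the thin filament, rose by 3.35 ± 0.40 against 0.07 ± 0.40, and Cav3, the caveolin of muscle, by 1.51 ± 0.22 against 0.03 ± 0.22. Bex1, a small brain-expressed X-linked protein also found in myoblasts, went from 4.41, 6.23 and 5.15 to 8.23, 9.07 and 9.31, and stayed between 3.81 and 4.30 in endothelial cells. Myod1, the factor of committed myoblasts, gave 0.36 ± 0.29 and -0.09 ± 0.29, and neither was called.

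The Klhl41 promoter, which unlike those of Ttn and Myog held a match, is shown with CAGCTG in capitals. CAGCTG is an E-box of the kind bound by myogenic factors. The window lies at chr2:69669870-69670169, plus strand (RefSeq, GRCm38.p6), and the letters of CAGCTG are palindromic, so both strands give the same match.
Klhl41: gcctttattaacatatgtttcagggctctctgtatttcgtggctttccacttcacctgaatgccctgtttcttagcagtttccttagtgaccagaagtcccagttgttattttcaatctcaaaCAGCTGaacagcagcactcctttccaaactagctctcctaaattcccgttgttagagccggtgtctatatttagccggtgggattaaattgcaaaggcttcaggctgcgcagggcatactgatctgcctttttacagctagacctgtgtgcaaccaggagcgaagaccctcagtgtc
CAGCTG occurred in 24.6% of the 126 windows of satellite-only genes that rose, in 7.59% of the windows of genes that rose in both, and in 16.1% of all windows. The endothelial-only genes that fell held it in 31.2% of 32 windows, and those that rose in 30% of 10 windows. Neither the Ttn nor the Myog window contained CAGCTG or CTATTTATA, and the latter was found in 0.3% of all windows.

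Endothelial transcripts also rose in the satellite sort. Of 28 endothelial identity genes tested, 16 rose in satellite cells and limma called none in endothelial cells (1 was higher at an unadjusted p under 0.05), with medians of 1.58 and -0.02, and 7 had a called response difference. In endothelial cells the list averaged 9.51 to 9.73 on day 0 and 9.61 to 9.68 on day 8. Kdr, the VEGF receptor, read 5.25, 5.49 and 5.67 in satellite cells on day 0 and 7.02, 8.06 and 7.86 on day 8, below the 10.02 to 11.00 of the endothelial arrays. Its responses were 2.18 ± 0.35 and -0.47 ± 0.35 (response difference 2.65 ± 0.49, adjusted p = 0.0045). Fli1, an ETS transcription factor of endothelium and blood, gave 2.09 ± 0.37 and -0.36 ± 0.37 (response difference not called in the fit of the 12 arrays alone, adjusted p = 0.073), and Gpihbp1, the capillary anchor of lipoprotein lipase, 2.18 ± 0.34 and -0.17 ± 0.34.

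Ctla2a and Fabp5 lie outside that list. Ctla2a, an inhibitor related to cathepsin propeptides, had a response difference of 4.21 ± 0.88, which rests on day 0 satellite arrays that were widely spread and, in replicates 1 and 2, below the array medians. It stood at 2.07, 3.82 and 5.75 in satellite cells on day 0 and at 7.70, 8.53 and 8.14 on day 8, against 9.00 to 10.28 over the 6 endothelial arrays. Fabp5, a fatty acid binding protein, went from 3.15, 4.89 and 4.45 to 8.28, 7.54 and 6.83 in satellite cells and stayed between 7.76 and 8.83 in endothelial cells. The calls of Cdh5 and Emcn were each lost in 10 of the 12 fits without an array. Cdh5, VE-cadherin, gave a response difference of 1.88 ± 0.47 (adjusted p = 0.035) and Emcn, endomucin, 2.79 ± 0.68 (0.032). These became 0.095 without satellite day 8 replicate 2 and 0.086 without satellite day 0 replicate 1, and the call of Cdh5 was also lost under both other scalings. Aplnr, the apelin receptor, rose by 4.19 ± 0.49 in satellite cells, from 4.41, 4.48 and 4.86 to 8.34, 9.02 and 8.96, against 1.38 ± 0.49 in endothelial cells at 8.86 to 9.96 and then 10.95 to 10.98. Its response difference of 2.81 ± 0.69 (adjusted p = 0.034) became 0.089 without endothelial day 0 replicate 2.

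Levels before injury differed between the classes of one cell type. Of the 129 satellite-only genes that rose, 53 (41.1%) were at least 2 log2 units higher in endothelial than in satellite cells on day 0, against 3.48% of all genes tested. Of the 78 that fell in satellite cells only, 46 (59%) were at least 2 units higher in satellite cells on day 0, against 2.89% of all genes. Among the 28 endothelial-only genes that fell, 18 (64.3%) were at least 2 units higher in endothelial cells on day 0. The median gap between the cell types (satellite minus endothelial) went from 2.46 on day 0 to 0.39 on day 8 for satellite-only falls, and from -2.41 to -0.59 for endothelial-only falls. The gap on day 0 uses the same arrays as the responses, so these values describe the classes and test nothing. For 37 of the 78 satellite-only falls both endothelial day means lay under the mean array median of 4.25, where a fall could hardly be measured. For 6 of the 28 endothelial-only falls both satellite day means lay under it.

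Of the 78 genes that fell in satellite cells only, 9 belong to any gene list, against 611 of the 14064 genes tested. Cldn1, a tight junction claudin, dropped from 8.06, 7.46 and 7.63 to 3.15, 4.06 and 3.44 in satellite cells and read 3.11 to 3.62 on the 6 endothelial arrays. The fall was by 4.17 ± 0.23 (adjusted p = 2.3e-10) and the response difference -4.22 ± 0.32. Tnxb, the matrix protein tenascin X, dropped from 7.63, 7.69 and 7.17 to 3.45, 3.79 and 4.19, a fall by 3.69 ± 0.23, with endothelial arrays at 3.41 to 3.99. Of 11 fibro-adipogenic markers tested, 4 fell and 1 rose in satellite cells, and their part in the falls of this class was not tested. Chrdl2, a secreted BMP antagonist, fell by 3.40 ± 0.31, from 9.67, 9.11 and 8.27 to 6.43, 5.11 and 5.30. On days 2 and 4 its mean was 3.97 and 4.19, below the day 8 arrays.

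Other members fell from high resting levels. Igfbp6, which binds insulin-like growth factors, fell by 3.05 ± 0.39, Slc7a8, an amino acid transporter, by 2.67 ± 0.50, and Tshr, the thyrotropin receptor, by 2.74 ± 0.22. Slc2a1, the glucose transporter GLUT1, went from 9.56, 9.42 and 9.47 to 7.89, 7.92 and 7.33 in satellite cells and from 8.51, 8.86 and 8.24 to 8.20, 8.10 and 8.05 in endothelial cells. Its response difference of -1.35 ± 0.33 (adjusted p = 0.032) became 0.097 without satellite day 8 replicate 3. Sdc4, a heparan sulfate proteoglycan of satellite cells, read 9.34, 9.67 and 9.56 and then 8.80, 7.99 and 7.13, with a response difference of -2.30 ± 0.60 (adjusted p = 0.048, and 0.140 without satellite day 8 replicate 3). Nr4a1, an immediate early nuclear receptor, fell by 1.08 ± 0.27 in satellite cells, with 0.83 ± 0.27 in endothelial cells, and a response difference of -1.91 ± 0.38 (adjusted p = 0.0085). Its satellite call was lost without satellite day 8 replicate 3 (adjusted p = 0.084).

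Of 25 satellite quiescence genes tested, 5 fell and 1 rose in satellite cells, and 3 fell in endothelial cells. Pax7 itself gave -1.15 ± 0.37 in satellite cells with an adjusted p of 0.060, and was called in the fits without satellite day 0 replicate 2 and without satellite day 8 replicate 1 (0.018 at the lowest) and with array weights (-1.12, adjusted p = 0.040). Its mean was 5.17 on day 2 and 8.46 on day 4. Itga7, the alpha7-integrin gene of the sort gate, gave 0.11 ± 0.28 and was called in neither cell type. Pax7 was still measured well above the array medians on day 8. The 10 satellite cell markers tested averaged 8.68 to 8.84 in satellite cells on day 0 and 8.63, 8.07 and 8.00 on day 8. Of these 10 markers, 2 fell and 0 rose in satellite cells, with a median difference of -0.45.

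In endothelial cells only, 14 genes rose, of which 4 belong to any gene list (Cxcl1, Mmp14, Myc and Tgfbi), against 611 of the 14064 genes tested. Mmp14, the membrane-bound metalloproteinase that cleaves collagen, rose 5.89-fold in endothelial cells, from 6.57, 6.16 and 5.07 to 8.56, 8.26 and 8.66. In satellite cells it was already high, at 8.43, 8.83 and 8.71 on day 0, and read 8.64, 8.98 and 9.40 on day 8. The responses were 2.56 ± 0.31 and 0.35 ± 0.31, and the response difference -2.21 ± 0.44 (adjusted p = 0.0082). Scd2, a fatty acid desaturase, rose by 2.17 ± 0.28, from 7.06, 6.98 and 6.18 to 8.73, 8.71 and 9.30 in endothelial cells against 8.69 to 9.13 in the satellite arrays of both days.

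Myc, the growth-promoting transcription factor, rose in endothelial cells and stayed below the satellite arrays. It went from 5.64, 4.76 and 5.39 to 7.57, 7.23 and 8.00 in endothelial cells (2.34 ± 0.30), with satellite arrays at 8.57 to 9.02 on day 0 and 8.66 to 9.67 on day 8. The response difference of -2.00 ± 0.43 had an adjusted p of 0.014, and 0.051 without endothelial day 8 replicate 3. Itga2, the alpha2-integrin collagen receptor, and Sez6l2, a seizure-related membrane protein, rose from near the array median in endothelial cells, with satellite arrays of 4.03 to 5.21 for Itga2 and 3.91 to 4.26 for Sez6l2 over both days. Itga2 went from 4.14 to 4.45 up to 6.40, 5.74 and 7.12 (2.15 ± 0.36) and Sez6l2 from 3.87 to 4.29 up to 7.02, 6.77 and 5.81 (2.46 ± 0.30). The response difference of Itga2 (adjusted p = 0.021) became 0.072 without endothelial day 8 replicate 3.

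Tmem255a, a transmembrane protein, rose by 2.17 ± 0.36 in endothelial cells, with arrays of 6.27, 6.95 and 5.51 and then 8.48, 8.17 and 8.58. Tgfbi, a matrix protein induced by TGF-beta, rose by 2.07 ± 0.49 in endothelial cells against -0.77 ± 0.49 in satellite cells. Its endothelial adjusted p of 0.026 reached 0.122 and its response difference, at 0.032, reached 0.090, both without endothelial day 8 replicate 3. Its day 2 mean reached 10.63 in satellite cells, against 7.47 in the endothelial sort. Cxcl1, a chemokine, rose by 1.40 ± 0.36 in endothelial cells (adjusted p = 0.042, and 0.217 without endothelial day 0 replicate 1) and read 7.94 to 8.56 and then 7.12 to 8.09 in satellite cells.

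Genes that fell in endothelial cells only came mostly from a level above that of satellite cells. Cdh23, a long cadherin, dropped 7.24-fold, from 7.49, 8.00 and 7.39 to 4.68, 4.97 and 4.66. Its satellite arrays read 3.32 to 4.01, below the array medians, where a fall could hardly be measured. The endothelial fall was by 2.86 ± 0.22 (adjusted p = 1.9e-07) and the response difference 3.05 ± 0.30. Fgf9, a fibroblast growth factor, fell by 2.55 ± 0.37, from 6.89, 6.84 and 5.66 to 3.55, 4.74 and 3.45, the latter near background. Xdh, the purine-oxidising xanthine dehydrogenase, fell by 2.36 ± 0.44, from 9.31, 9.45 and 10.27 to 7.21, 7.44 and 7.32. Its response difference of 2.58 ± 0.62 (adjusted p = 0.031) became 0.085 without endothelial day 0 replicate 3.

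Snord35b, a small nucleolar RNA, showed the largest endothelial fall of the class, by 4.32 ± 0.70, from 9.77, 9.32 and 9.69 to 6.04, 5.54 and 4.25. Its satellite arrays were widely spread, at 6.11, 4.46 and 3.04 and then 3.06, 4.91 and 4.60. The response difference (adjusted p = 0.036) became 0.113 without endothelial day 8 replicate 3. Cadm1, a cell adhesion molecule, fell by 1.87 ± 0.40 and Car8, a carbonic anhydrase-related protein, by 1.73 ± 0.38 in endothelial cells. Those calls were lost at up to 0.067 without endothelial day 8 replicate 2 for Cadm1 and 0.072 without endothelial day 8 replicate 3 for Car8.

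Responses in opposite directions were rare. By the strict definition, called in both, 4 genes qualified: Cdkn1c, AU020206 and Stk17b rose in satellite cells and fell in endothelial cells, and Tmem176b did the reverse. By a wider definition, a called response difference with opposite signs and an unadjusted p under 0.05 in each cell type, 55 genes qualified, of which 35 had the positive sign in satellite cells. This wider group overlaps the classes above. It holds the 4 strict genes and 19 genes already counted in one cell type only, and 28 of its members were called in neither response.

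Cdkn1c, the imprinted gene of the cell cycle inhibitor p57, had the largest response difference of the 4. In satellite cells it went from 5.08, 5.81 and 5.23 to 8.38 on each of the 3 arrays, an 8.02-fold rise. In endothelial cells it went from 7.03, 7.25 and 7.01 to 6.23, 5.22 and 5.54, a 2.70-fold fall. The days did not overlap in either cell type. The responses were 3.00 ± 0.26 (adjusted p = 1.7e-07) and -1.44 ± 0.26 (0.0033), and the response difference 4.44 ± 0.37 (4.9e-07). The means were 4.37 and 7.80 in satellite cells on days 2 and 4 and 4.98 and 5.06 in endothelial cells.

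Cdkn1a, the gene of the related inhibitor p21, had the same signs. It went from 7.64, 7.38 and 7.03 to 9.74, 9.43 and 9.69 in satellite cells (2.27 ± 0.32), and read 8.87, 9.80 and 9.61 and then 9.17, 8.43 and 8.11 in endothelial cells (-0.85 ± 0.32, not called), where the days overlapped. The response difference was 3.12 ± 0.45 (adjusted p = 0.00067).

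Among the remaining strict members, Stk17b and Tmem176b changed their order between the cell types, while AU020206 stayed higher in endothelial cells. AU020206, a transcript without a gene name, went from 5.48, 5.13 and 5.25 to 6.84, 7.20 and 7.21 in satellite cells and from 9.72, 9.91 and 9.58 to 8.29, 8.27 and 7.85 in endothelial cells (1.80 ± 0.26 and -1.60 ± 0.26). Stk17b, a kinase linked to apoptosis, gave 1.87 ± 0.36 and -1.38 ± 0.36. Its endothelial call, at an adjusted p of 0.046, was lost in 8 of the 12 fits without an array, at up to 0.144 without endothelial day 8 replicate 1. The call was also lost under both other scalings, without the filter (0.067) and with a fixed replicate block (0.051). Tmem176b, a membrane protein of immune and other cells, went from 8.29, 8.14 and 7.83 to 6.66, 6.83 and 6.92 in satellite cells and from 6.78, 7.09 and 6.77 to 8.20, 7.81 and 7.79 in endothelial cells (-1.28 ± 0.20 and 1.05 ± 0.20). Its endothelial difference fell just below 1 without endothelial day 0 replicate 3 or endothelial day 8 replicate 1.

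**Figure D4:**
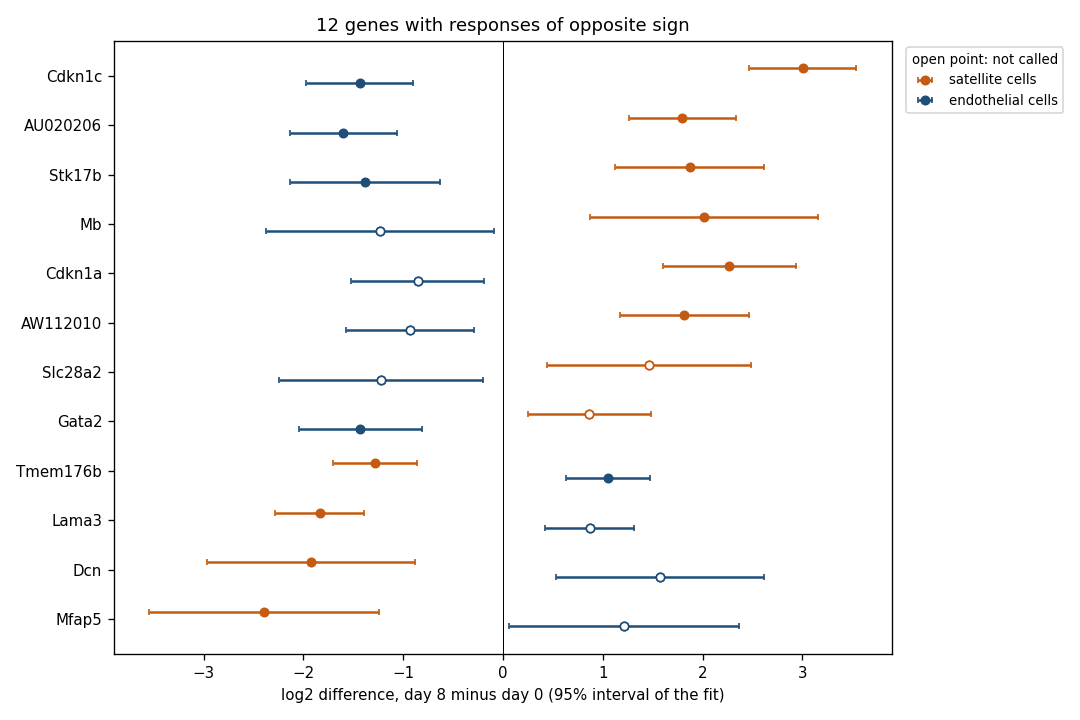
Satellite and endothelial responses (x axis, log2 difference of day 8 minus day 0, with the 95% interval of the fit) of the 12 named genes with opposite signs (y axis), filled where called and open where not. Cdkn1c, AU020206, Stk17b and Tmem176b are called on both sides.

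Several matrix genes had the reverse signs. Dcn, the proteoglycan decorin, fell from 10.02, 10.02 and 10.10 to 7.10, 8.70 and 8.56 in satellite cells, while endothelial arrays read 4.12, 4.58 and 6.17 and then 5.60, 6.67 and 7.34. The responses were -1.92 ± 0.50 and 1.58 ± 0.50, the latter not called, and the response difference -3.50 ± 0.71 (adjusted p = 0.0091). The satellite call was lost without satellite day 8 replicate 1, the lowest array (adjusted p = 0.111), and in the fit of the 12 arrays of days 0 and 8 alone (0.053). Mfap5, a microfibril protein, gave -2.39 ± 0.55 and 1.22 ± 0.55 (response difference -3.61 ± 0.78). Lama3, the laminin alpha3 chain, gave -1.84 ± 0.22 and 0.87 ± 0.22. Beside these, the 11 fibro-adipogenic markers averaged 7.66 to 7.97 and then 6.98 to 7.69 in satellite cells, and 4.85 to 5.35 and then 5.37 to 5.82 in endothelial cells, and their part was not tested.

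The wider group also held genes that started high in endothelial cells. Gata2, a transcription factor of endothelial and blood lineages, fell by 1.43 ± 0.30 in endothelial cells, from 8.50, 8.56 and 7.82 to 6.81, 6.98 and 6.79, and gave 0.87 ± 0.30 in satellite cells from 4.02 to 4.65. Its endothelial call was lost without endothelial day 0 replicate 2 (adjusted p = 0.062). AW112010, a transcript induced by interferon, rose by 1.82 ± 0.31 in satellite cells against -0.93 ± 0.31 in endothelial cells. On the endothelial side replicate 3 of day 0 was the highest array at 10.73, and the 26 interferon response genes averaged 8.80 on that array against 7.11 and 7.17 on the others. Slc28a2, a nucleoside transporter, gave 1.47 ± 0.49 and -1.22 ± 0.49, and neither response was called on its own.

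**Figure D5:**
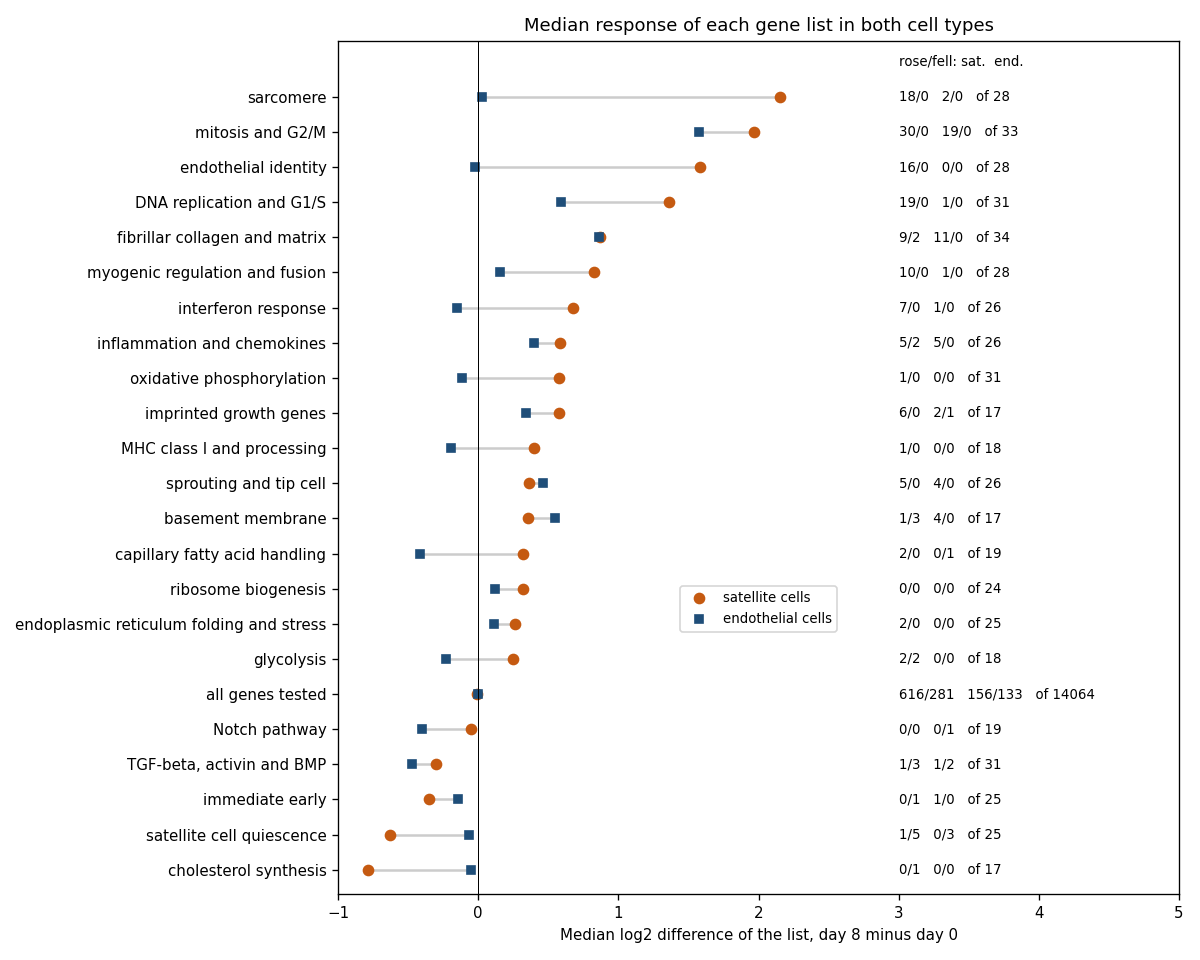
Median log2 difference of day 8 minus day 0 (x axis) for each of 22 gene lists and for all genes tested (y axis), in satellite cells (circles) and endothelial cells (squares), with the numbers of genes that rose and fell in each at right. The squares of the sarcomere and endothelial identity lists lie at 0.03 and -0.02 with circles at 2.16 and 1.58, and the mitosis list is high in both.

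Energy metabolism and housekeeping lists gave few calls. Of 31 oxidative phosphorylation genes tested, 1 rose in satellite cells and limma called none in endothelial cells, with medians of 0.58 and -0.11. At an unadjusted p under 0.05, 18 were higher in satellite cells, 1 was higher and 4 were lower in endothelial cells, and the response difference was higher for 14. The share of all genes tested at that unadjusted threshold is not given here. Such counts, for this and the other lists, are therefore not set against a background. Ndufa4, a subunit of the respiratory chain, read 9.23, 9.33 and 9.70 and then 10.33, 10.28 and 10.55 in satellite cells and 9.90, 9.87 and 9.78 and then 9.65, 9.55 and 9.60 in endothelial cells. Its response difference was called at 1.21 ± 0.23 (adjusted p = 0.0053), although its responses of 0.96 and -0.25 fell short of 1, and Ndufb8, a complex I subunit, gave 1.31 ± 0.27 (adjusted p = 0.011, and 0.071 in the fit of the 12 arrays alone). Of 18 glycolysis genes 2 rose and 2 fell in satellite cells, and limma called none in endothelial cells (3 higher and 1 lower at an unadjusted p under 0.05). Of 24 ribosome biogenesis genes limma called none, with 5 in satellite and 2 in endothelial cells higher at an unadjusted p under 0.05. Of 26 interferon response genes 7 rose in satellite cells and 1, Cxcl10, in endothelial cells. The list mean was 5.48 to 5.67 and then 6.16 to 6.72 in satellite cells. In endothelial cells it was 7.11, 7.17 and 8.80 on day 0 and 7.62, 7.73 and 7.65 on day 8. Endothelial day 0 replicate 3 thus lay above the day 8 arrays, and the other day 0 arrays lay below them. The 17 cholesterol synthesis genes had medians of -0.79 and -0.05, with 1 that fell in satellite cells.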

How the data were processed

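Expression was measured on single-channel whole-transcript arrays. The deposited table holds log2 values that the authors normalised with RMA, per the submitters' processing notes; its version and the genome build were not given in the sources used here. Of 24479 probe sets, 23281 had a gene symbol and 1198 had none and were left out. Groups came from the sample titles, since the cell type and time point fields of some samples disagree with the titles. The samples are numbered in order of day, so that order and day cannot be told apart. Whether the arrays were hybridised in that order is not known from the labels. Genes above the array median on at least 3 of the 24 arrays of the series were kept (14064). One limma 3.58.1 model (R 4.3.3) over 8 groups of 3 arrays, with 16 residual degrees of freedom, gave both responses and their difference. P-values were adjusted over all genes by Benjamini-Hochberg, and errors are the model's SE. The number of arrays limits the precision. The script was tested on simulated data.

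Named genes were, per class, the 6 (12 for opposite signs) ranked by the smaller difference if shared and otherwise by response difference, among genes whose arrays did not overlap. Added were, per gene list, up to 4 with the largest called response difference and 2 called in both, and 9 fixed markers. Il6, Col1a1, Tnc, Col15a1, Postn, Col3a1, Pdgfrb, Vtn, Abcc9, Rgs5, Tagln, Tyrobp and Lcp1 fall outside that rule and were named after their values were seen. The members and lists were chosen with earlier results of these data known. Alternatives covered the arrays fitted, filter, scaling, prior, array weights, thresholds, replicate block and leaving out each array.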

Additional observations from a re-analysis of the deposited data

Results flagged for a closer look

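The responses of satellite and endothelial cells differed by the test of the difference itself for 72 of the 99 genes that the naming rule selects, and each is given as satellite response minus endothelial response on the log2 scale. Cdkn1a, AW112010, Lama3, Gata2 and Nr4a1 are listed under one cell type and also have opposite signs by the wider definition. Among genes that rose in satellite cells only it was 4.21 for Ctla2a, 3.68 for Myot, 3.66 for Bex1, 3.57 for Gm4070, 3.41 for Fabp5, 3.36 for Neb, 3.27 for Klhl41, 3.17 for Ttn, 3.12 for Cdkn1a, 2.91 for Actn3, 2.86 for Pgam2, 2.79 for Emcn, 2.75 for AW112010, 2.65 for Kdr, 2.45 for Plagl1, 2.45 for Fli1, 2.35 for Gpihbp1, 2.14 for Igfbp3, 1.88 for Cdh5, 1.76 for Psmb9, 1.73 for Mcm6, 1.68 for Igf2, 1.62 for Rrm2, 1.56 for Tgfb1 and 1.48 for Cav3 (SE 0.31 to 0.92). Myot and Pgam2 had 1 of the 3 satellite day 8 arrays close to day 0.

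Among genes that fell in satellite cells only it was -4.22 for Cldn1, -3.68 for Tnxb, -3.52 for Chrdl2, -3.48 for Slc7a8, -3.37 for Igfbp6, -3.12 for Tshr, -2.97 for Cnn1, -2.71 for Lama3, -2.47 for Chrdl1, -2.30 for Sdc4, -1.91 for Nr4a1, -1.88 for Smoc2, -1.45 for Ldhb, -1.45 for Myocd and -1.35 for Slc2a1 (SE 0.30 to 0.78). Among genes that rose in endothelial cells only it was -2.84 for Tgfbi, -2.57 for Tmem255a, -2.33 for Sez6l2, -2.21 for Itga2, -2.21 for Mmp14, -2.16 for Scd2, -2.08 for Cxcl1 and -2.00 for Myc, and among those that fell there 3.97 for Snord35b, 3.05 for Cdh23, 2.94 for Fgf9, 2.58 for Xdh, 2.52 for Cadm1, 2.47 for Car8 and 2.30 for Gata2 (SE 0.30 to 0.99). The genes called in opposite directions gave 4.44 for Cdkn1c, 3.40 for AU020206, 3.25 for Stk17b and -2.34 for Tmem176b (SE 0.29 to 0.51).

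Shared responses of unequal size gave -3.63 for Clmn, 3.28 for Myog, 2.46 for Mfap4 and 1.31 for H19 (SE 0.32 to 0.56). Genes outside these classes gave 4.03 for Mymk, -3.61 for Mfap5, -3.50 for Dcn, 3.24 for Mb, 3.20 for Tnnt2, 2.81 for Aplnr, 2.69 for Slc28a2, 1.31 for Ndufb8 and 1.21 for Ndufa4 (SE 0.23 to 0.78).

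Of the 72 differences, 45 stayed called in each of the 12 fits without 1 array. Of these, 3 were lost when only the 12 arrays of days 0 and 8 were fitted, with an adjusted p of 0.073 for Fli1, 0.071 for Ndufb8 and 0.059 for Tnnt2. The others missed an adjusted p of 0.05 in at least 1 fit. Their highest adjusted p was 0.0893 for Aplnr, 0.118 for Igfbp3, 0.0656 for Mfap4 without endothelial day 0 replicate 2; 0.0571 for Cadm1, 0.0949 for Cdh5, 0.0836 for H19, 0.0963 for Psmb9, 0.121 for Slc28a2 without satellite day 8 replicate 2. It was 0.139 for Cnn1, 0.0913 for Cxcl1, 0.0889 for Mb, 0.105 for Myocd, 0.105 for Myot, 0.114 for Pgam2, 0.14 for Sdc4, 0.0969 for Slc2a1 without satellite day 8 replicate 3; 0.0862 for Emcn, 0.078 for Mcm6 without satellite day 0 replicate 1. Without other arrays it was 0.113 for Igf2, 0.0717 for Itga2, 0.0507 for Myc, 0.113 for Snord35b, 0.09 for Tgfbi without endothelial day 8 replicate 3; 0.134 for Ldhb, 0.102 for Rrm2 without endothelial day 8 replicate 2. The rest were 0.0797 for Tgfb1 without satellite day 0 replicate 3; 0.0847 for Xdh without endothelial day 0 replicate 3.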

How the results depend on the processing

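Of 198 results for named genes, 123 kept their direction and side of the threshold in all 13 alternative settings and all 12 fits without 1 array. Fitting only the 12 arrays of days 0 and 8 lost 19 of the calls, and dropping the filter lost 16. Without requiring a called response difference, the genes assigned to one cell type numbered 529 up and 261 down in satellite cells and 71 up and 111 down in endothelial cells. Requiring the other cell type's interval inside -1 to 1 left 63 satellite-only genes up and 14 endothelial-only genes down. Scaling to a common 75th percentile gave 23 endothelial-only genes up. Array weights gave 238 up and 221 down in endothelial cells, response differences of 323 higher and 189 lower, 38 shared falls, 195 satellite-only rises, 31 endothelial-only rises, 50 endothelial-only falls and 114 genes of opposite sign in the wider definition. The cause was not tested.

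Testing against a difference of 0.5 (limma's treat) is stricter by construction. It gave 260 up and 87 down in satellite cells, 52 and 29 in endothelial cells, and response differences of 50 higher and 34 lower. The classes then held 28 shared rises, 2 shared falls, 39 and 28 satellite-only rises and falls, 2 and 4 endothelial-only rises and falls, and 1 strict and 5 wider opposite genes. Itga7, which was not called, changed sign from 0.11 to -0.091 with array weights, and ranged from -0.24 without satellite day 0 replicate 1 to 0.31 without satellite day 0 replicate 2 (-0.01 without satellite day 8 replicate 2).

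Without 1 array at a time, counts ranged from 477 to 615 up and 223 to 350 down in satellite cells, 107 to 155 up and 54 to 150 down in endothelial cells, and 109 to 260 higher and 74 to 114 lower for the response difference. Shared rises ranged from 57 to 81, shared falls from 10 to 24, satellite-only rises from 76 to 189 and falls from 58 to 82, endothelial-only rises from 6 to 12 and falls from 12 to 26, and opposite genes from 3 to 5 (wider, 30 to 68).

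The sample titles and array names do not say what a shared number means. Of 12 same-numbered pairs of arrays, 11 also shared the number in the array name (5 of 6 on days 0 and 8). Deviations from the group means correlated over 0.1 in 0 of 6 pairs on days 0 and 8 (-0.06 to 0.08) and in 4 of 6 on days 2 and 4 (-0.01 to 0.20), so a pairing was not established. With the number within a day as a random replicate block, satellite cells had 619 up and 279 down, endothelial cells 158 and 129, and the response difference 221 and 136. By the number in the array name these were 619 and 282, 157 and 128, and 224 and 136. As a fixed replicate block the number within a day gave 618 and 294, 162 and 131, and 190 and 104. That block lost the response differences of Cnn1, Igfbp3, Myocd, Pgam2 and Sdc4 (adjusted p of 0.0505 to 0.0612). The endothelial calls of E2f8 and Stk17b were lost there too, each at 0.051. Averaging probe sets of a gene changed nothing, since none shared a symbol.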
